A study of Mus musculus with 2 samples.

Results

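The keratin-positive epithelial cells were the cell barcodes in which at least 3 of 7 epithelial genes (Krt5, Krt14, Krt15, Krt13, Krt7, Epcam and Cdh1) had at least 1 UMI, a unique molecular identifier that stands for 1 captured RNA molecule. They numbered 54 of 23816 cells. Mouse 1 held 25 of 14136 cells (0.177%, 95% Clopper-Pearson interval 0.114 to 0.261%) and mouse 2 held 29 of 9680 (0.300%, 0.201 to 0.430%). A cell was a barcode with at least 1000 UMIs, at least 300 genes and at most 15% of UMIs from mitochondrially encoded genes. The tissue was labelled olfactory epithelium and came from 2 male wildtype C57BL/6J mice, with 1 droplet library per mouse, no treatment and no altered allele. Both mice form 1 group, so no conditions were compared. Their age was not used here. The members were picked by their expression, so every comparison with the other cells is a description without a test. Intervals and detection floors cover counting error only.

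Keratins are the intermediate filament proteins of epithelia, and each filament needs a type I and a type II keratin. Krt5 with Krt14 or Krt15 marks the basal layer of stratified epithelia, Krt13 and Krt4 mark the upper layers of moist stratified linings, and Krt7, Krt8, Krt18 and Krt19 mark simple and glandular epithelia. Epcam and Cdh1 (E-cadherin) are adhesion proteins of most epithelial cells. In the nose, horizontal basal cells at the base of the olfactory epithelium carry Krt5 and Krt14. Sustentacular cells and Bowman's glands carry drug-metabolising enzymes, and respiratory and squamous linings lie next to the olfactory area.

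The keratins of the rule sit in the keratin gene clusters on mouse chromosomes 11 (type I) and 15 (type II). The last 30 bases before the annotated start of 4 of them, 5′ to 3′ on the gene's strand, are shown from RefSeq (GRCm38.p6). Krt13 and Krt14 are shown because they define the groups described below, and Krt7 and Krt5 because they were detected with them. Capitals mark the letters ATAAAAG, which were picked after the sequences had been read and searched on both strands.
Krt14: tctgtactgagaggaggatccagaagatga
Krt5: gATAAAAGgggacctcaaatctcctaagtt
Krt13: cATAAAAGgcatgcacggcagggaagtgcc
Krt7: cagcctccgccccgcatggaggaATAAAAG
These stretches lie on the minus strand at chr11:100206031-100206060 (Krt14), chr15:101712906-101712935 (Krt5) and chr11:100121567-100121596 (Krt13), and on the plus strand at chr15:101412373-101412402 (Krt7). The letters begin 29 bases before the start of Krt5 and of Krt13 and 7 bases before that of Krt7, and are not in the Krt14 window. Of 7 keratin and adhesion gene windows read, these 3 hold the letters, and those of Krt14, Krt18, Krt8 and Epcam do not. Of 27025 promoters with 1 start per gene, 0.929% hold ATAAAAG on either strand of this 30-base window.

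The members of mouse 1 had 198620 UMIs in all, with a median of 5162 per barcode, and those of mouse 2 had 458298, with a median of 9583. The other cells had medians of 3905 and 5189. Levels are given in CPM, the UMIs of a gene scaled to the same total in every sum or barcode. A floor of 3 UMIs over all members corresponds to 15.1 CPM in mouse 1 and 6.55 in mouse 2. The libraries share 483 cell barcodes, and none of the 54 members is a member in both. The deposited tables total 95844802 and 86049057 UMIs.

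Some member barcodes had nearly the same profile. In 3 pairs of mouse 1 and 6 pairs of mouse 2, each barcode was the other's nearest of all cells, and the mean chi-square per gene between them was 1.13 to 1.24 and 1.23 to 2.31, where sampling noise alone gives about 1. The same barcodes were at 6.51 to 14.7 and 3.46 to 13.6 from their next nearest cell. Other pairs of members within a keratin group had medians of 9.30 and 10.4, with a lowest value of 0.920 in mouse 1 for a pair that was not mutually nearest. Counted as 1 cell per pair, the members are 22 and 23. Whether a pair is 1 cell under 2 barcodes or 2 alike cells was not tested. In mouse 1 a further member of 16074 UMIs formed such a pair with a barcode that missed the rule. Members of 2373 and 2108 UMIs there were also mutually nearest to such barcodes, at 1.25 and 1.03. They were compared over only 52 and 57 genes, under the limit of 80, and were not counted.

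**Figure D1:**
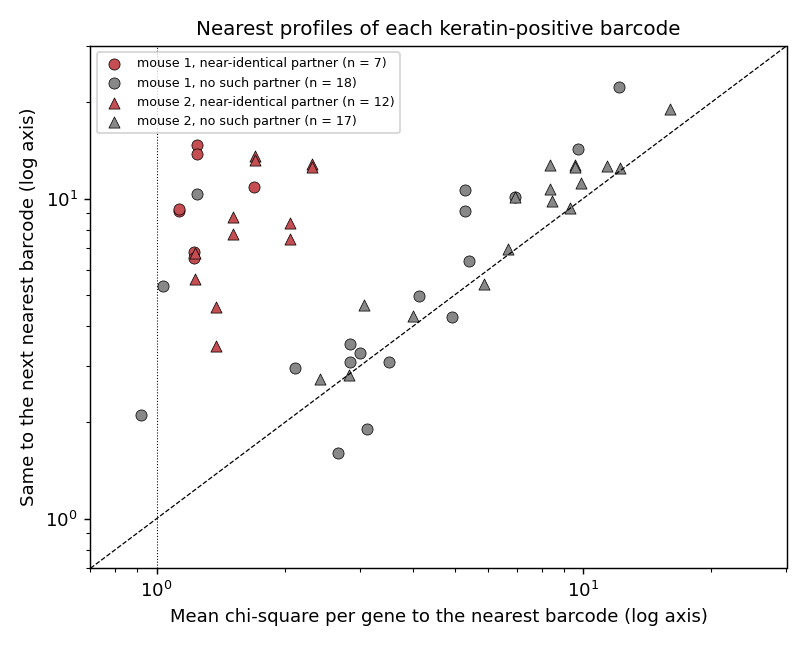
Each point is 1 keratin-positive barcode, placed by the mean chi-square per gene to its nearest cell (horizontal, log axis) and to its next nearest cell (vertical, log axis), and the dotted line at 1 is the value for sampling noise. The 19 red points, 7 of mouse 1 and 12 of mouse 2, had a near-identical partner and sit far above the dashed line of equal values.

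The label was checked with 20 epithelial genes outside the rule, among them the tight junction genes Cldn3, Cldn4 and Cldn7, the desmosome gene Dsp, the splicing factor Esrp1 and the protease inhibitors Spint1 and Spint2. At least 3 of the 20 were detected in 19 of 25 members of mouse 1 (76.0%, interval 54.9 to 90.6%) and in 28 of 29 of mouse 2 (96.6%, 82.2 to 99.9%). In the fibroblast class, other cells with at least 3 of 5 fibroblast markers and no second lineage, the shares were 0.0863% of 4633 cells and 0.127% of 3927, at median depths of 3215 and 4172 UMIs. Thinned to 1000 UMIs per barcode, the shares were 8 of 25 (32.0%) and 16 of 29 (55.2%), against none in the fibroblast class. A count of 0 there allows up to 0.0648% and 0.0764% at 3 cells, with exact upper bounds of 0.0796% and 0.0939%. Higher shares were found in the cartilage class, 7.22% of 4419 cells and 9.68% of 2602 at median depths of 6909 and 10937 UMIs, and 0.113% and 0.192% at 1000 UMIs. All other cells together had 2.96% and 3.33%, and 0.0709% and 0.0933% at 1000 UMIs. Fewer than 3 of these genes were found in 6 members of mouse 1 and 1 of mouse 2. All 6 in mouse 1 had Krt14 and no Krt13, so for them the label has little support outside the rule. At 1000 UMIs, 2 of 13 such barcodes in mouse 1 (15.4%) had at least 3, against 4 of 10 with Krt13.

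**Figure D2:**
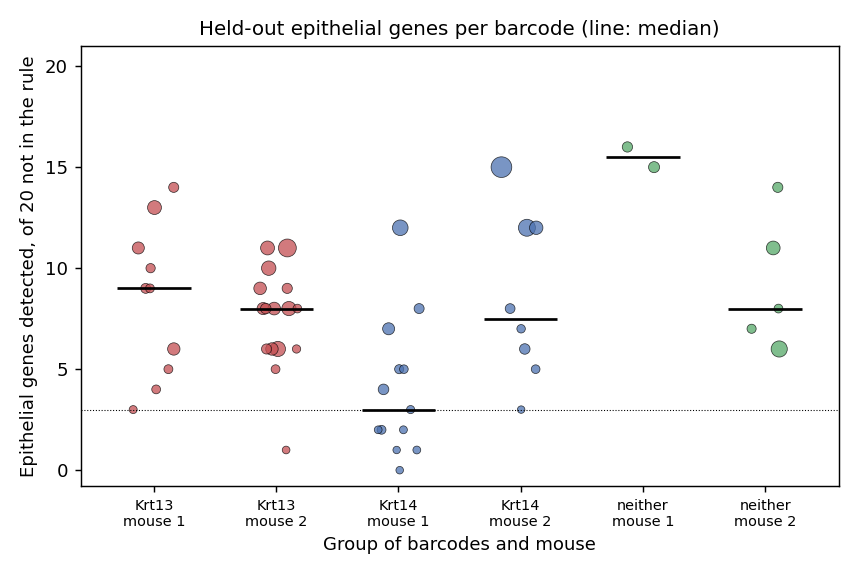
The vertical axis gives the number of detected epithelial genes, of 20 that the rule did not use, for each keratin-positive barcode, by keratin group and mouse, with point area growing with UMIs and a line at the median. Barcodes with Krt14 and no Krt13 in mouse 1 had a median of 3, and the other sets had medians of 7.5 to 15.5.

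At the threshold, the 10 and 9 members with exactly 3 rule genes had medians of 20.5 and 22 UMIs of the rule genes, whereas the 32 and 16 cells with 2 rule genes had a median of 3 in both mice. Cells with 2 rule genes had a median of 2 of the 20 outside genes in both mice, and members with 3 had 2.5 and 6.

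Markers of connective tissue cells appeared in some members. At least 3 of 5 markers of another lineage were found in 8 of 25 members of mouse 1 (32.0%, 14.9 to 53.5%) and 6 of 29 of mouse 2 (20.7%, 7.99 to 39.7%). The fibroblast list accounted for 6 and 5 of them, the cartilage list for 5 and 1 and the mural list for 0 and 2, and no member reached 3 markers of any of the 9 other lineage lists. Summed over the members, the 5 fibroblast markers stood at 926 CPM in mouse 1 and 153 in mouse 2, against 4956 and 5017 in the fibroblast class, and at 76.5 and 49.6 CPM once the marked members were left out. Their part in the results below was not tested, and the closing section gives the counts without them.

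The members fell into 3 keratin groups, described here after their values were seen. Krt13 was detected in 26 barcodes, 10 of mouse 1 and 16 of mouse 2. Krt14 without Krt13 was found in 21, 13 of mouse 1 and 8 of mouse 2, and 7 barcodes, 2 and 5, had neither. Of the members with markers of another lineage, 5 and 4 had Krt13 and 3 and 2 had Krt14 alone. Membership needs 3 of the 7 rule genes, and 2 of those cut the groups, so their co-detection is partly set by the rule. All 26 barcodes with Krt13 also had Krt7, whereas 1 of the 21 with Krt14 alone did. All 21 with Krt14 alone had Krt5, against 6 of the 26 with Krt13. Krt15, a type I keratin of basal cells, ran through the groups and was detected in 46 of the 54.

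**Figure D3:**
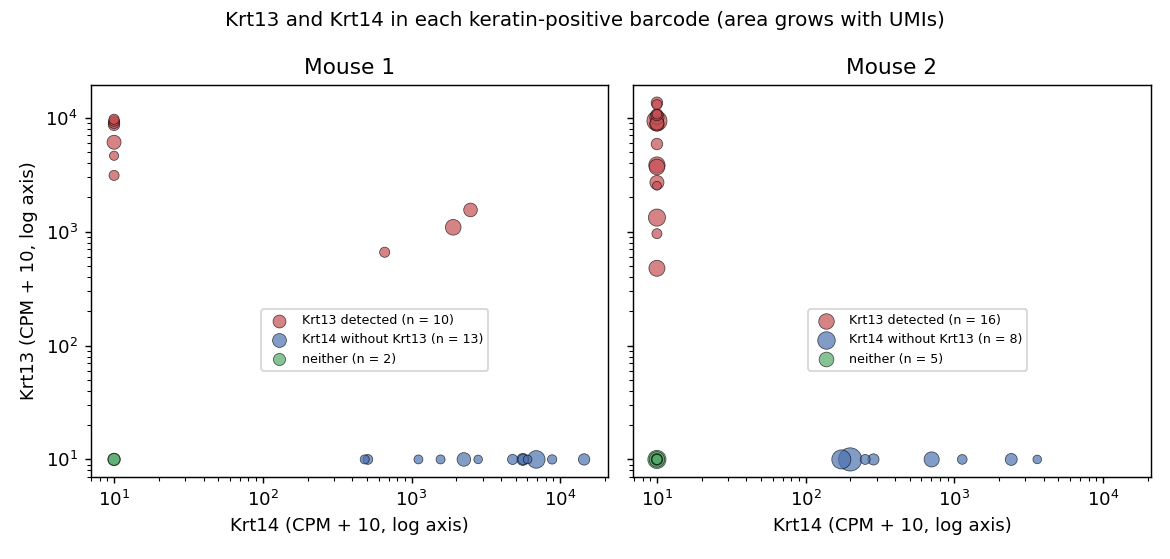
Krt14 (horizontal) and Krt13 (vertical) in each keratin-positive barcode, in CPM plus 10 on log axes, by mouse, with point area growing with UMIs. Only 3 barcodes, all of mouse 1, hold both keratins, and the other barcodes with Krt13 or Krt14 lie on an axis.

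The rule genes themselves were as follows. Krt13 ranged over the Krt13 barcodes from 649.9 through a median of 5366 to 9711 CPM in mouse 1 and from 467 through 7355 to 13558 CPM in mouse 2. Krt14 ranged over the barcodes with Krt14 alone from 474 through 4770 to 14449 CPM in mouse 1 and from 164 through 484 to 3594 CPM in mouse 2, so mouse 1 had higher values with overlapping ranges. Krt7 ran in the Krt13 barcodes from 90.3 through 1970 to 13300 CPM and from 1486 through 3950 to 10290 CPM. Over all members, Epcam stood at 146 CPM in mouse 1 and 199 in mouse 2, and Cdh1 at 141 and 43.6. Among the Krt13 barcodes of mouse 2, Cdh1 had 0 UMIs in 16 barcodes (floor 12.2 CPM), while Epcam was detected in 14 of them.

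The rule fixes that its genes are detected in members and rarely elsewhere, so the shares that follow only give the background, at median depths of 5162 and 9583 UMIs in members and 3215 and 4172 in fibroblasts. In the fibroblast class Krt14 had a UMI in 0.151% and 0.204% of cells, Krt13 in 0.0648% and 0.535% and Krt7 in 0.194% and 0.306%, while the members had Krt14 in 64.0% and 27.6%, Krt13 in 40.0% and 55.2% and Krt7 in 48.0% and 75.9%. At 1000 UMIs per cell the members had Krt14 in 56.0% and 13.8%, Krt13 in 36.0% and 44.8% and Krt7 in 32.0% and 51.7%, and the fibroblast class at most 0.153% of cells. Barcodes of at most 50 UMIs, a measure of free RNA, held Krt13 at 16.1 and 19.9 CPM, against 1.83 and 0.814 CPM in the other cells.

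Genes higher in the Krt13 barcodes, also picked from the values, included surface, secreted and squamous proteins. Psca, a small protein anchored on the surface of mucosal cells, had UMIs in 6 of 10 Krt13 barcodes of mouse 1, with a lowest value of 0, a median of 9342 and a highest of 50569 CPM. In mouse 2 it had UMIs in 14 of 16, with 0, 22982 and 66558 CPM. No UMI of Psca fell in the 21 barcodes with Krt14 alone, where the floor is 34.3 CPM in mouse 1 and 21.3 in mouse 2, so the groups overlap only at 0. Ltf, the iron-binding milk and mucosal protein lactotransferrin, ranged from 0 through 7682 to 59804 CPM in mouse 1 and from 722 through 15924 to 48970 CPM in mouse 2, with 1 UMI in all barcodes with Krt14 alone. Pglyrp1, a secreted protein that binds bacterial cell walls, had medians of 9056 and 15906 CPM in the Krt13 barcodes and 2 and 0 UMIs in the barcodes with Krt14 alone. Csta1, a cysteine protease inhibitor of the cystatin A type, was found in 9 of 10 and 14 of 16 Krt13 barcodes and in none outside that group.

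In each mouse, 290 of 3756 genes (7.72%) were at least 4-fold higher in the summed Krt13 barcodes than in those with Krt14 alone, and 156 (4.15%) were at least 4-fold lower, on log2 of CPM plus 10. The serine protease Prss27 stood at 5481 and 11698 CPM in the Krt13 barcodes and at 0 in both mice in the others. Mal, a membrane protein of apical transport, stood at 2329 and 4196 CPM and also at 0. The membrane-bound mucins Muc4 (1263 and 1268 CPM) and Muc20 (1098 and 1684 CPM) were among these genes, as was Upk1b, a tetraspanin first known from the bladder lining (560 and 4020 CPM). Calml3, a calmodulin-like protein of epithelia, stood at 1681 and 2043 CPM. The suprabasal and squamous list summed to 7371 and 13137 CPM in the Krt13 barcodes and 3320 and 3098 with Krt14 alone. The airway secretory list went the other way, with 286 and 334 CPM against 458 and 1762, and 22251 and 3416 in the barcodes with neither keratin. Its sums with Krt14 alone rest on few barcodes. In mouse 2, those of 20204 and 7259 UMIs had 68 and 56 UMIs of Cyp2f2, and the first had 49 of Scgb1c1. In mouse 1, the 4014-UMI barcode, which carried fibroblast and cartilage markers, had 31 UMIs of Reg3g. Other keratins were higher in the Krt13 barcodes too. Krt6b, a type II keratin of stratified epithelia, stood at 439 and 1659 CPM against 0 and 0. Krt75 stood at 1175 and 1003 against 0 and 156, and Krt4 at 692 and 1162 against 11.4 and 0. Krt6a and Krt6b are near-identical copies, so reads may be shared between them.

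**Figure D4:**
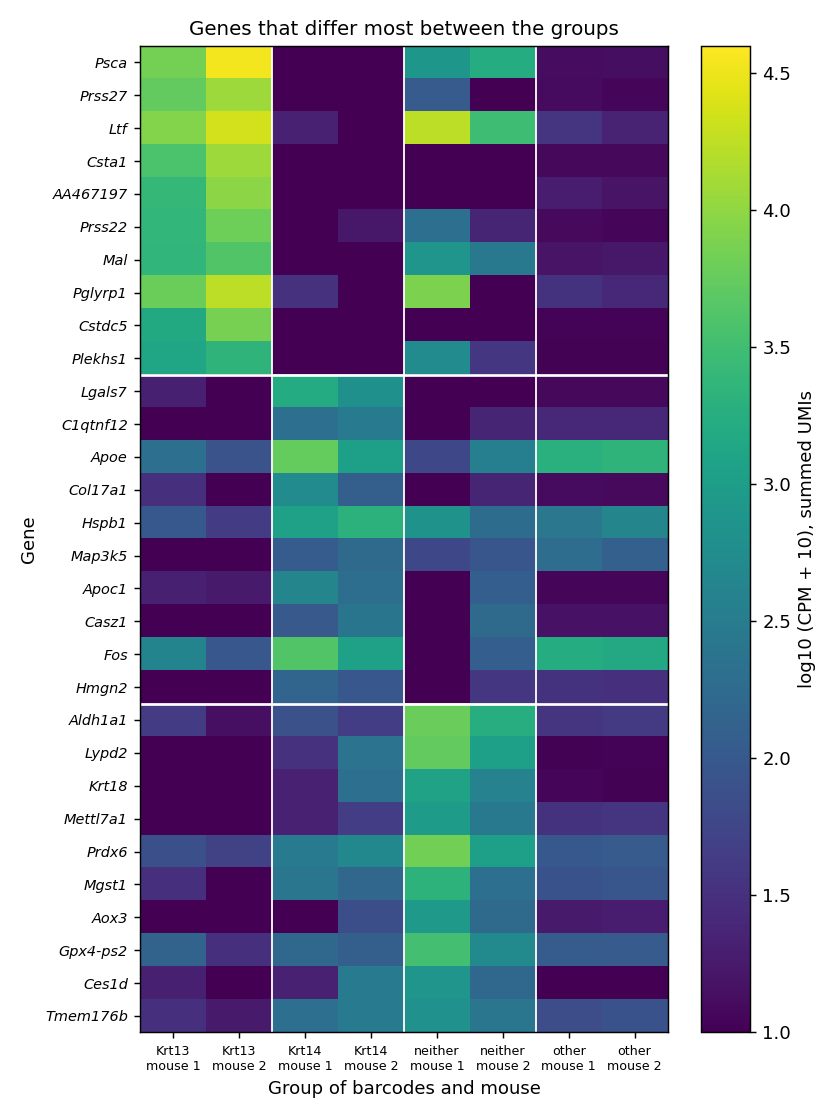
Colour gives log10 of CPM plus 10 from summed UMIs for 10 genes with the largest ratio in both mice of each of 3 kinds, predicted genes with Gm symbols and repeats left out, in the 3 keratin groups and in the other cells of each mouse. Psca reaches 7041 and 34302 CPM in the Krt13 columns and 0 in the Krt14 columns, whereas Lgals7 reaches 1614 and 639.5 CPM in the Krt14 columns.

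Gsto1, a glutathione transferase of the omega class, had 11237 and 37613 CPM in the Krt13 barcodes, against 80.1 and 121 CPM in those with Krt14 alone. Cfap43, a gene of the ciliary axoneme, had almost the same counts, 1212 and 9431 UMIs over the members against 1162 and 9358 of Gsto1. The genes overlap on opposite strands in the GRCm38 annotation, so reads of Gsto1 and Cfap43 may not be told apart. Plet1 and Plet1os (211 and 226 UMIs in mouse 1, 2075 and 2129 in mouse 2) and Lgals7 and Gm10648 (142 and 141, 90 and 97) are overlapping pairs of the same kind and are equally uncertain.

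The Krt13 group was not uniform. In mouse 1, 3 of its 10 barcodes also had Krt14, with Krt5 at 4876, 4830 and 5416 CPM and Krt15 at 5869, 5769 and 10832 CPM. The 22149-UMI and 14906-UMI barcodes of these form a near-identical pair, and all 3 had 0 UMIs of Psca and Cyp2a5. The 16074-UMI barcode of mouse 1 and the 23536-UMI barcode of mouse 2 also lacked Psca, while Asprv1, a protease of squamous epithelium, had 90 and 269 UMIs there. All 5 of these barcodes carried markers of another lineage: 4 fibroblast and 5 cartilage markers of 5 in both barcodes of the pair, 3 cartilage markers in that of 4616 UMIs, and 5 fibroblast markers in those of 16074 and 23536. The 1586-UMI barcode of mouse 2 also lacked Psca, but had only 2 fibroblast markers. Krt13 barcodes with Psca carried such markers too. The 2373-UMI one of mouse 1 had 4 fibroblast markers. In mouse 2, those of 28017 and 8329 UMIs had 3 and 4, and that of 41524 had 3 cartilage markers. Dcn, a fibroblast gene, had 146 and 114 UMIs in the pair and 283 in the 16074-UMI barcode. The part of these markers in the differences was not tested. A near-identical pair of mouse 2 (24445 and 22210 UMIs) held 375 and 341 UMIs of Cxcl5, a chemokine that attracts neutrophils, of 719 in all members of mouse 2.

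Genes higher in the barcodes with Krt14 alone were picked after their values were seen, and included genes of basal cells. Lgals7, a galectin of stratified epithelia, stood at 1614 and 639.5 CPM, against 10.98 and 0 in the Krt13 barcodes. Col17a1, the transmembrane collagen of hemidesmosomes that fix basal cells to the basement membrane, stood at 538 and 114 CPM against 22.0 and 0. Itgb4, the integrin chain of the same structure, stood at 149 and 163 CPM against 10.98 and 12.2. The transcription factor gene Casz1 stood at 91.6 and 242 CPM against 0 and 0, and the small heat shock protein gene Hspb1 at 1122 and 2061 against 87.9 and 32.6. Apoe stood at 5586 and 1059 CPM against 198 and 73.4, but at 1893 and 2151 CPM in the other cells, so its level was not above those cells in mouse 2. Trp63, the master regulator of basal cells, had 9 and 11 UMIs over all members. The basal and hemidesmosome list as a whole summed to 1866 and 2011 CPM with Krt14 alone, 692 and 106 in the Krt13 barcodes and 1875 and 1500.1 in the other cells, so it was not above the other cells in mouse 1.

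The near-identical pair of 58182 and 36662 UMIs holds 67.4% of the UMIs of this group in mouse 2. Without it, Hspb1 fell from 2061 to 567 CPM there and Casz1 from 242 to 174, while Col17a1 stood at 262, Itgb4 at 305 and Lgals7 at 719 CPM. Apoe stood at 1940 CPM without it, still below the 2151 of the other cells. With the pair left out, 293 genes were higher in the Krt13 group and 91 lower, in place of 290 and 156. Without members that carried another lineage, 313 were higher and 333 lower, and 225 and 65 of these were among the first 290 and 156. In mouse 1 alone 156 were higher and 93 lower, and in mouse 2 alone 477 and 788. Fewer genes entered in these settings, 2800, 1689, 1249 and 2396 in this order in place of 3756. The counts are therefore not shares of the same set.

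RNA composition differed between these groups as well. The 89 ribosomal protein genes took 22.7% and 19.1% of UMIs in the barcodes with Krt14 alone and 8.18% and 1.97% in the Krt13 barcodes, with 8.91% and 10.3% in the other cells. Per barcode the shares ran from 9.59 to 37.4% and 8.24 to 31.6% with Krt14 alone, and from 1.29 to 13.7% and 1.06 to 8.73% with Krt13, so the ranges overlap in both mice. The 20 most abundant genes of a barcode took a median of 37.6% and 41.2% of UMIs in the Krt13 group and 17.4% and 15.0% with Krt14 alone. At 1000 UMIs the Krt13 barcodes showed medians of 476 and 420 genes and those with Krt14 alone 592 and 649. The mitochondrial share had medians of 10.4% and 3.65% in the Krt13 group and 4.15% and 4.03% with Krt14 alone, and 4 and 3 barcodes with Krt14 alone were under 1%, against none of the other members. What these differences have to do with the gene differences was not tested.

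The 7 barcodes with neither Krt13 nor Krt14 were a mixed set. In mouse 1 they were a near-identical pair of 11344 and 8880 UMIs. Cyp2a5, a cytochrome P450 abundant in nasal mucosa, stood there at 23537 and 21960 CPM, and Ltf at 16925 and 18131. Cyp2f2, a cytochrome P450 of airway secretory cells, stood at 20275 and 21396 CPM, and Wfdc2, a secreted protease inhibitor of airway glands, at 10138 and 10473. Krt18, the simple keratin, stood at 705 and 1802 CPM and was at 0 in all 26 Krt13 barcodes. Cyp2a5 has near-identical copies, so its reads may be shared with them.

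In mouse 2 the 5 barcodes differed from each other. That of 8401 UMIs had Cyp2a5 at 5357 CPM and Krt15 at 1547 CPM. The 21570-UMI barcode held Cyp2a5 at 5656 CPM together with genes of motile cilia, 62 UMIs of Tmem212, 34 of Ccdc153 and 29 of Dnah9, and 115 of Reg3g, a secreted lectin. Those of 4374 and 5350 UMIs were near-identical to a Krt13 barcode of 4204 UMIs and a Krt14 barcode of 7259 UMIs, so a missing keratin UMI decided their group. Over the set, Aldh1a1, a retinaldehyde dehydrogenase, stood at 6032 and 1756 CPM, against 33.0 and 4.08 in the Krt13 barcodes and 68.7 and 35.5 with Krt14 alone. It was 1 of the 92 of 2584 genes (3.56%) at least 4-fold higher here than in the Krt13 barcodes in both mice, where 225 (8.71%) were lower. Against the barcodes with Krt14 alone, 56 of 2905 genes (1.93%) were higher, Aldh1a1 among them, and 186 (6.4%) lower.

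A few members went against their label. The 32614-UMI barcode of mouse 2 was led by neuronal genes, with 156 UMIs of the potassium channel gene Kcnh7, 61 of the synaptic vesicle gene Syt1 and 56 of Uchl1. It held 28 of the 33 UMIs of Omp, the olfactory marker protein of mature olfactory neurons, in the members of mouse 2, but it also had 13 UMIs of Epcam, 13 of Krt18 and 8 of Krt7. Omp and Capn5 overlap and share a strand in GRCm38, and reads may be divided between them. The 2108-UMI barcode of mouse 1 was led by neutrophil genes, with 42 UMIs of S100a9 and 29 of S100a8, beside 3 of Krt5 and 2 of Epcam. With both barcodes left out, 258 genes were 4-fold higher and 259 lower than in the other cells, in place of 250 and 237.

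Single barcodes held other epithelial programmes. In mouse 2 the 3576-UMI barcode had 43 UMIs of Krt1, 53 of Krt10 and 37 of Krtdap, genes of the drying upper layers of skin, and it held 93.5% of the Krt1 UMIs and 72.6% of the Krt10 UMIs of that mouse's members. In mouse 1 all 14 UMIs of Krt1 fell in the 7959-UMI barcode, which also had Krt14 at 14449 CPM. The 20204-UMI barcode of mouse 2 had 49 UMIs of Scgb1c1, a secretoglobin, 23 of Bpifa1, a secreted airway defence protein, and 68 of Cyp2f2, beside Krt14 at 693 CPM. The near-identical pair of 58182 and 36662 UMIs in mouse 2, the deepest with Krt14, had Krt5 at 516 and 327 CPM and 54 and 14 UMIs of Dcn, a fibroblast gene. Krt28, a keratin of the hair follicle's inner sheath, had 26 UMIs in mouse 2, in 3 barcodes of the Krt14 group, and 0 in mouse 1.

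Over all members against all other cells, 250 of 8965 genes (2.79%) were at least 4-fold higher and 237 (2.64%) at least 4-fold lower in both mice. This contrast is the one the rule used. Of the 20 genes that led it outside the keratins and the rule, Psca came first, at 3308 CPM (Poisson interval 3060 to 3571) in mouse 1 and 18623 (18230 to 19023) in mouse 2, against 3.16 and 3.66 CPM in the other cells. It had UMIs in 8 and 16 members, so fewer than the members with Epcam (13 and 23). Gsta4, a glutathione transferase that detoxifies lipid aldehydes, stood at 1349 and 2459 CPM against 4.98 and 7.28, and was spread over 16 and 23 members. S100a14, an epithelial calcium-binding protein, stood at 564 and 823 CPM against 0.893 and 0.918, and was found in 17 and 24 members, in each keratin group. Cyp2a5 stood at 2638 and 735 CPM against 0.267 and 0.37, and 1 barcode held 51.0% of its UMIs in mouse 1. That barcode and its near-identical partner, of 11344 and 8880 UMIs, held 267 and 195 of the 524.

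The 10 genes with the lowest ratio included genes of cartilage and connective tissue, among them Mgp, Comp, Cytl1, Prg4, Omd and Cnmd. Mgp, matrix Gla protein, stood at 574 CPM (473 to 690) and 345 (293 to 403) in the members against 11223 and 15364 in the other cells, and had UMIs in 18 of 25 and 25 of 29 members. The barcodes of at most 50 UMIs held Mgp at 12362 and 16279 CPM. Wif1, a secreted Wnt inhibitor, stood at 45.3 and 19.6 CPM against 988 and 998, and Comp, a cartilage matrix protein, at 60.4 and 15.3 against 1106 and 1181.

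The gene lists with a shared role are read beside the 2.79% and 2.64% of all genes. The highest medians were those of the simple keratins and of the suprabasal and squamous list. Of the suprabasal and squamous list, 10 of 14 genes that entered were 4-fold higher, with a median log2 ratio of 3.72, including Ly6d (a surface protein of squamous cells), Sprr1a (a cross-linked envelope protein) and Cnfn. All 5 simple keratins that entered, of 6 listed, were higher, with a median of 5.80, but 1 of them, Krt7, is a rule gene. These 5 were at most 1.92 CPM in the other cells, so they entered only through UMIs in the members, where they are high. Genes of any list can enter in this way, which favours higher calls. The suprabasal and squamous list names 20 genes, and the airway secretory and the serous gland lists below name 15 each. With no filter on low values, 3 lists were past 4-fold in place of 7. Of the desmosome and cell junction list 10 of 25 were higher (median 1.97), among them Dsp, Pkp3, Ppl and 4 claudins, Cldn3, Cldn4, Cldn7 and Cldn23. The epithelial genes outside the rule had 13 of 19 higher (median 2.90). The median over all genes was -0.09.

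**Figure D5:**
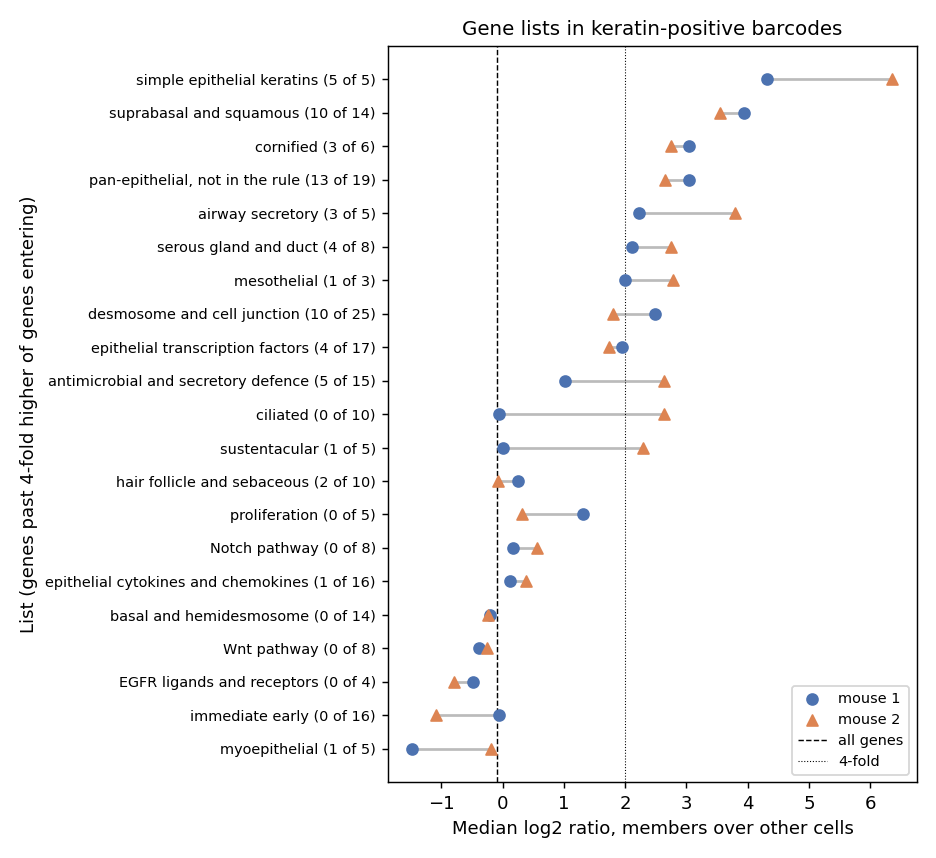
The horizontal axis gives the median log2 ratio of members over other cells for each gene list with at least 3 genes entering, in mouse 1 (circles) and mouse 2 (triangles), with the dashed line at the median of all genes and the dotted line at 4-fold. Simple keratins stand at 4.32 and 6.37, and the ciliated list at -0.05 and 2.63.

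Of 30 listed transcription factors of epithelia, 4 had 0 UMIs in the members of both mice. Of 17 that entered, 4 were higher: Elf3 (302 and 412 CPM against 1.20 and 1.17), Ehf, Klf5 and Ovol1. Elf3, an ETS factor of epithelial differentiation, stood at 593 and 742 CPM in the Krt13 barcodes and at 0 and 7.11 with Krt14 alone. Klf4, a factor of squamous differentiation, stood at 780 and 240 CPM against 869.6 and 709. The basal and hemidesmosome list had 0 of 14 genes higher and a median of -0.22. Dst, which links keratin filaments to hemidesmosomes, stood at 186 and 139.6 CPM in the members and 723 and 495 in the other cells.

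Genes of mucosal defence were partly higher. Of the antimicrobial and secretory list 5 of 15 were higher (Pglyrp1, Wfdc2, S100a14, Defb1 and Reg3g) and 1, the lysozyme gene Lyz2, was lower. Defb1, an epithelial defensin, stood at 901 and 1403 CPM in the Krt13 barcodes and at 57.2 and 78.2 with Krt14 alone. Of the serous gland and duct list 4 of 8 were higher (Aqp5, Pigr, Ltf and Wfdc2) and Lyz2 was lower, while Lpo, Dmbt1, Obp1a and Obp2a, products of nasal glands, had 0 UMIs. Of the airway secretory list 3 of 5 were higher (Reg3g, Cyp2f2 and Spdef), and Bpifb1, Muc5b, Muc5ac and Scgb3a1 had 0 UMIs in the members of both mice. Reg3g had UMIs in only 3 and 2 members, and 1 barcode held 53.4% and 77.7% of them. Spdef had UMIs in 2 and 4 members, with 66.7% and 43.75% in 1 barcode.

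Of the lists for other cell types in and near the olfactory epithelium, few genes passed 4-fold in both mice. The barcodes with Krt14 alone have Krt14 by definition, and all had Krt5, a rule gene whose co-detection the rule partly sets. Both keratins mark horizontal basal cells, but here they are no independent support for that type. The same 2 keratins mark the basal layer of other stratified epithelia, so they do not tell these apart. Of the sustentacular list, 1 of 5 genes that entered was higher, Cyp2a5, and the defining genes Cyp2g1, Ermn and Muc2 had 0 UMIs. Sult1d1 had 4 and 37 UMIs (log2 ratio 1.59 and 3.18), and Ugt2a1 and Sec14l3 had 18 and 14 in mouse 2 and 0 in mouse 1. In the barcodes with neither keratin the list summed to 23042 and 3457 CPM, with Cyp2a5 at 22844 and 2711. Of the globose basal and neuronal precursor list none was higher, with Neurog1 and Neurod1 at 0 UMIs. The ciliated list had 0 of 10 genes higher in both mice, and its genes in mouse 2 lay mostly in the 21570-UMI barcode, which held 62 of 62 UMIs of Tmem212 and 34 of 34 of Ccdc153. The tuft and microvillar list and the ionocyte list had 0 of 2 genes higher each, with the ionocyte factor Foxi1 at 0 UMIs. For the dental epithelium no gene entered and 9 of 10 had 0 UMIs, and the enamel genes Amelx, Ambn and Enam were among these. Of the olfactory neuron list 0 of 2 were higher, with the values of Omp given above.

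Few signalling, stress and growth genes passed 4-fold. The Notch list had 0 of 8 genes higher, the EGFR list 0 of 4 and the Wnt list 0 of 8, with Dkk3 lower. Wnt4, a secreted ligand, had 20 and 18 UMIs, at 101 and 39.3 CPM against 2.28 and 2.47, a log2 ratio of 3.17 and 1.98. Of the cytokine list 1 of 16 was higher (Cxcl5, at 826 and 1569 CPM) and 2, Cxcl2 and Csf1, were lower. Cxcl5 lay mostly in 1 near-identical pair per mouse. In mouse 1 the pair of 11344 and 8880 UMIs held 67 and 67 of its 164 UMIs. In mouse 2 the pair of 24445 and 22210 UMIs held 375 and 341 of 719. The proliferation list had 0 of 5 higher, and Mki67, a marker of dividing cells, had 4 and 2 UMIs. None of the 16 immediate early genes, which are switched on fast by stimulation, was higher and Klf2 was lower. Their summed level was 19173 and 8200 CPM with Krt14 alone, 5690 and 3975 in the Krt13 barcodes and 11406 and 10673 in the other cells. Per barcode, the medians were 10436 and 2349 CPM with Krt14 alone and 4744 and 3716 with Krt13, so the order turned in mouse 2. Of the remaining lists, the cornified one had 3 of 6 higher (Krt1, Krt80 and Calml3), the hair follicle and sebaceous one 2 of 10 (Krt17 and Krt75), the mesothelial one 1 of 3 (Upk1b), the myoepithelial one 1 of 5 (the rule gene Krt14) and the melanocyte one 0 of 2.

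These counts depended on the scale and on the libraries. In mouse 1 alone 301 genes were 4-fold higher and 448 lower, and in mouse 2 alone 565 and 631. With members that carried another lineage left out, 301 were higher and 564 lower. With mitochondrial shares up to 10% in place of 15%, 166 were higher and 205 lower. The lower calls depended on the cells compared with: against the fibroblast class alone 203 genes were lower, of which 60 were among the 237, and with a mean over cells in place of sums 246 were, of which 144 were. The higher calls shared 234 and 239 of the 250 in these settings.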

How the data were processed

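Gene expression was measured in single cells of 2 mice, 1 library each. The authors deposited raw counts per gene and barcode, with 56953 genes and no normalization, per the file headers. STAR (no version), Cell Ranger 7.0.0 and GRCm39 are named in the submitters' processing notes without role or order. The counts were taken as UMI counts, which no source states. For annotation release and strand use, no statement was found in the labels or headers. The tables list 575908 and 610731 barcodes, so cells were called here by the thresholds given in the report. No doublet caller was run.

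Counts were summed per mouse over members and over other cells, scaled to CPM and compared as log2 of CPM plus 10. A gene entered with at least 10 UMIs over the members or at least 20 CPM in the other cells of both mice, and was called at 4-fold in both mice. Between keratin groups a gene entered with at least 20 UMIs over both groups and mice. No test was run, because both mice are 1 group and expression chose the members. Members and gene lists were chosen with earlier results of these data known. Named genes are the rule genes, keratins with at least 10 UMIs, the 20 highest (at least 5 members and 10 UMIs in each mouse) and 10 lowest (at least 100 CPM in other cells) by the smaller ratio of both mice, up to 4 genes per list, and list genes at 0 that define a type. Genes that part the keratin groups, single barcodes and any other gene named were chosen after their values were seen. Shares have Clopper-Pearson and levels exact Poisson 95% intervals. Near-identical pairs are mutual nearest neighbours (cosine of square-root counts) with a mean chi-square of at most 2.5 over at least 80 genes of at least 10 summed UMIs, limits set after the values were seen. Of 27025 RefSeq promoters (GRCm38.p6), 1 start per gene was used. The calls of members against other cells were tried on simulated sums with known fold changes and Poisson noise only. These sums had no spread between barcodes, so they do not bear on calls that rest on few barcodes. Python 3.11.15, numpy 2.4.6, scipy 1.17.1 and pandas 2.3.3 were used.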

Additional observations from a re-analysis of the deposited data

How the results depend on the processing

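No paired analysis was possible because no test was run and both mice belong to 1 group, so no replicate block exists. Each ratio is taken within a mouse. Over the settings tried, the member share (mean of both mice, 0.238% of cells) and the held-out epithelial support (86.3% of members) moved by more than the spread between mice at 2 of 7 rule genes (0.434% and 63.45%, with a mixed lineage share of 51.2% in place of 26.3%, 145 genes higher, 3 lower and 4 lists past 4-fold in place of 7), and the member share at 1000 UMIs per cell (0.119%, with 163 genes higher and 356 lower). The count of genes 4-fold higher (250) became 166 with mitochondrial shares up to 10%, and the count lower (237) became 564 without members of another lineage. With 1 CPM added, 520 were higher, 443 lower and 11 lists past 4-fold, with 50 CPM 85, 56 and 2, and with no filter on low values 3 lists, where the median log2 of serous gland and duct genes turned to -0.0026. Leaving out each mouse gave 301 to 565 higher, 448 to 631 lower, 7 to 10 lists, member shares of 0.177 to 0.300%, held-out support of 76.0 to 96.6% and mixed lineage shares of 20.7 to 32.0%. Pairs counted once, chosen after seeing the data, gave 0.197%, 84.2%, 26.8%, 243 higher, 253 lower and 6 lists. Leaving out the 2 barcodes led by neuronal or neutrophil genes was also added after seeing the data. Of 540 values of 30 named genes, 446 stayed within the spread between mice and none turned. These genes were picked for the highest and lowest ratios of members over other cells in the same data. A change of sign was therefore hardly possible for them, and its absence does not bear on how stable the ratios are. Depth limits the lower calls: the members' 198620 UMIs in mouse 1 put the floor at 15.1 CPM. Of the genes past 4-fold between Krt13 and Krt14 groups (290 higher, 156 lower; all alternatives added after seeing the data), 91 were lower without the near-identical Krt14 pair of mouse 2 and 333 without members of another lineage. With 1 CPM added 273 were lower, and with 50 CPM 127 were higher and 25 lower. Leaving out each mouse gave 156 to 477 higher and 93 to 788 lower. The genes that entered ranged from 1249 to 3756 over these settings, so the counts are not shares of the same set.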
